A study of Mus musculus with 4 samples.

Results

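The genes described here are 10 components of the mammalian circadian clock, Per1, Per2, Per3, Cry1, Cry2, Nr1d1, Nr1d2, Arntl, Clock and Dbp. They were taken by name from a deposited expression table of 36445 genes, and each name had 1 row. The libraries came from MC38, a mouse colon cancer line. The treated cells received the pyrimidine analogue 5-fluorouracil (5-FU, 1 mM) and the controls received PBS, both for 24 h, with 2 libraries of polyadenylated RNA per group. No allele, transgene or further agent is given for either group. The labels name no synchronising step and no clock time of harvest, and they do not state that replicates were separate cultures. The p-values therefore describe the spread between these libraries, which may be technical.

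The circadian clock of mammalian cells is a transcriptional feedback loop. ARNTL (also called BMAL1) pairs with CLOCK and activates genes that carry E-box sequences, among them the Per, Cry, Nr1d and Dbp genes, and the PER and CRY proteins then inhibit the pair. The nuclear receptors REV-ERB-alpha (Nr1d1) and REV-ERB-beta (Nr1d2) repress Arntl through RORE sequences, which ROR receptors activate, and DBP activates genes through D-box sequences that the repressor NFIL3 also binds. In cultured cells that have not been synchronised, the phases of single cells differ, so a bulk library reads an average over phases.

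The DNA elements of this loop can be read in the promoters of several of the 10 genes, and 6 stretches are shown as examples of each element, from a gene of each feedback arm. Sequences are from RefSeq on GRCm38.p6, written 5′ to 3′ on the gene's strand, with the motif in capitals and positions counted from the transcription start as +1.
Per1 (E-box, chr11:69098771-69098800, plus strand): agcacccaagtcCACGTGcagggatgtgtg
Cry1 (E-box, chr10:85185097-85185126, minus strand): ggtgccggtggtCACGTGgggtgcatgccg
Nr1d1 (E'-box, chr11:98775388-98775417, minus strand): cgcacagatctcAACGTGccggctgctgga
Arntl (RORE core, chr7:113207530-113207559, plus strand): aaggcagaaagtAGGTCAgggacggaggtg
Nr1d2 (RORE core, chr14:18239166-18239195, minus strand): gattggaagaagAGGTCAggaccgctcgtt
Per3 (a pair of D-boxes, chr4:151044810-151044876, minus strand): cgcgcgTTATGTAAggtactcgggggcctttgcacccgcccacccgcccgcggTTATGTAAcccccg

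Windows of 250 bases before to 50 bases after a start were searched on both strands for the E-box CACGTG, the E'-box CACGTT, the RORE core AGGTCA and the D-box TTATGTAA. A window was held for 9 of the 10 genes, all but Per2 (13 windows in all). At least 1 match to any of these motifs was found in 8 genes, and Dbp had 0 matches in its 1 window. No match overlapped another. Of all 32851 RefSeq windows of this length, 7.15% held the E-box, 4.68% the E'-box, 16.3% the RORE core and 0.938% the D-box. These shares are per motif and per window, so they give no background for the count of 8 genes. The Per3 D-boxes began at positions -205 and -158. The E-box of Per1 began at -166 from 1 of its 2 starts, that of Cry1 at -60, and the Nr1d1 E'-box at -28. The RORE core of Arntl began at +32 from 1 of its 2 starts, and that of Nr1d2 at -77. Further matches were an E'-box in Cry2, an E'-box in Cry1 and RORE cores in the same Per1 window and in 1 of the 3 windows of Clock. These are matches of letters only, and binding was not measured.

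Values are FPKM (fragment counts divided by gene length and library size) as deposited by the authors, so levels of different genes can be set beside each other per length. Estimated depth was 20.8 and 20.6 M reads in 5-FU replicates 1 and 2 and 41.3 and 41.6 M reads in PBS replicates 1 and 2. The PBS libraries stood further apart from each other than the 5-FU libraries did, with a median absolute gap of 0.271 log2 between PBS replicates and 0.073 log2 between 5-FU replicates over 11644 tested genes. All 9 epithelial markers checked, among them Epcam, Cdh1 and Cdx2, were below 1 FPKM in every library, with summed FPKM of 1.78 and 1.70 in 5-FU and 0.823 and 1.59 in PBS. Epcam reached at most 0.0475 FPKM, whereas Vil1 had 0.717 and 0.806 FPKM in 5-FU and 0.0477 and 0.108 FPKM in PBS. Summed FPKM of 5 mesenchymal genes (Vim, Fn1, Cdh2, Zeb1 and Twist1) was 1320 and 1280 in 5-FU and 1390 and 1510 in PBS; Vim was above both PBS libraries in 5-FU, Fn1 and Twist1 were below both, and Cdh2 and Zeb1 overlapped. The part of these markers in the results was not tested. Summed FPKM of 5 leukocyte markers was 0.0515 and 0.0816 in 5-FU and 0.0123 and 0 in PBS. Of 4 endothelial and erythroid markers the 3 others than Hba-a1 stayed below 1 FPKM. Hba-a1 had 3.31 and 2.81 FPKM in 5-FU and 2.5 and 1.6 FPKM in PBS. In a bulk library, fewer cells expressing a gene and less RNA per cell cannot be told apart.

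After 5-FU, 4 of the 10 clock genes fell (Arntl, Cry1, Per3 and Dbp) and 3 rose (Nr1d1, Cry2 and Clock), while Per1, Per2 and Nr1d2 did not pass the test. Genes were tested with limma on log2(FPKM + 1), and an adjusted p under 0.05 over all tested genes counted as passing. Over all tested genes 53.3% passed, with 22.1% higher and 31.2% lower in 5-FU, so 7 of 10 is a count to be read against a background in which more genes passed than not. The median log2 difference was -0.114 for the 10 genes and -0.097 for all tested genes, and that of the 10 was 0.13 under quantile normalization. In each of the 10 genes both 5-FU libraries lay on one side of both PBS libraries, as in 81.0% of tested genes. Per3 and Dbp reached the 1 FPKM needed for testing only in PBS, so a fall was the only difference they could show. Without 5-FU replicate 1 no member passed at an adjusted p under 0.05 (limma), and without 5-FU replicate 2 only Arntl did; at an unadjusted p under 0.05, 1 member was higher and 4 were lower in each of these fits. In those fits 259 and 293 of all genes passed higher and 237 and 299 lower, since the error then rests on the PBS pair.

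**Figure D1:**
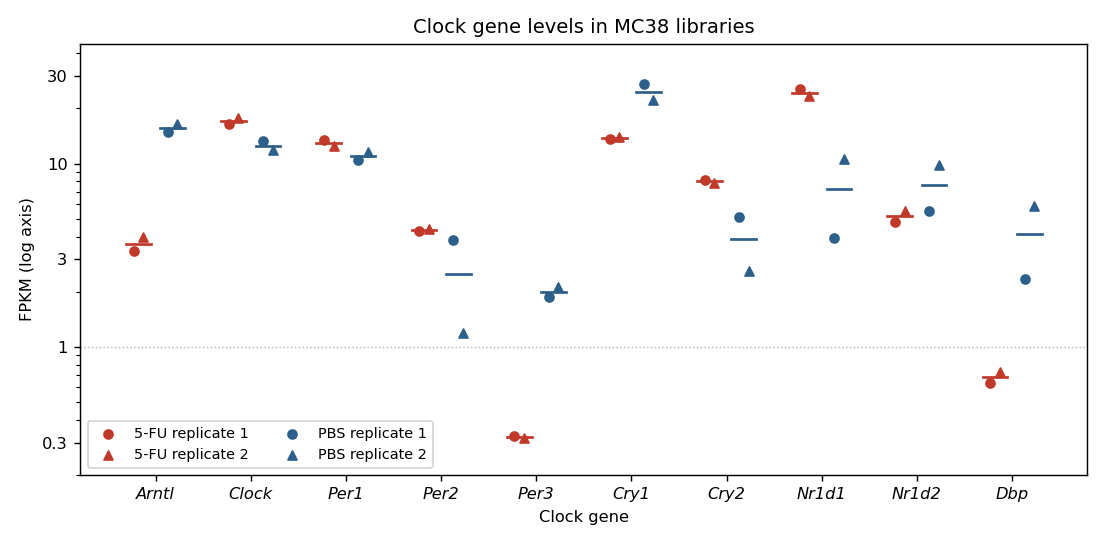
Level of each clock gene in FPKM (log axis) in 5-FU (red, left of each pair) and PBS (blue, right); circles are replicate 1, triangles replicate 2 and bars the mean of 2 libraries. The 5-FU libraries lie close together for all 10 genes, whereas the PBS libraries of Per2, Cry2, Nr1d1, Nr1d2 and Dbp stand apart; the dotted line marks 1 FPKM.

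Of the activator pair, Arntl passed as lower and Clock as higher. Arntl, which encodes the bHLH-PAS activator BMAL1 (ENSMUSG00000055116, GRCm38 chromosome 7, 113207465 to 113314126, plus strand), had 3.32 and 3.96 FPKM in 5-FU libraries against 14.8 and 16.4 FPKM in PBS libraries. Both 5-FU values were far below both PBS values, and the PBS libraries were close to each other. Arntl was 4.30-fold lower (log2 difference -1.84 ± 0.144 SE, limma adjusted p = 0.00278). This was the largest difference among the 10 in the fit described above, on the log2(FPKM + 1) scale. With a pseudocount of 0.1 it was -2.08 log2, smaller in size than those of Per3 (-2.31) and Dbp (-2.29). With quantile normalization it was -1.60 log2, smaller than that of Nr1d1 (1.89). With the trend of each library with gene span removed it was -1.34 log2, smaller than those of Nr1d1 (1.71) and Dbp (-1.55). It was -1.91 log2 without PBS replicate 1 (Dbp -2.03) and -1.77 log2 without PBS replicate 2 (Nr1d1 2.36). It remained the largest in the other alternatives. The Arntl call was lost in 1 of 15 alternatives, without 5-FU replicate 1. With every library kept, its adjusted p ranged from 0.000878 to 0.0168 over the alternatives (limma).

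Clock, which encodes the partner of ARNTL (chromosome 5, 76209868 to 76304792, minus strand), had 16.5 and 17.7 FPKM in 5-FU and 13.3 and 11.8 FPKM in PBS. The groups did not overlap, but the difference was small, 0.42 ± 0.126 log2 (limma adjusted p = 0.0455). That call was lost in 4 of 15 alternatives, among them no filter on low values and each 5-FU library left out. With the trend of each library with gene span removed, the difference was larger, 0.90 log2 (limma adjusted p = 0.00646). The ratio of Arntl to Clock FPKM within a library was 0.202 and 0.224 in 5-FU and 1.12 and 1.39 in PBS. Arntl thus stood above Clock in both PBS libraries and below it in both 5-FU libraries.

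Of the 3 Period genes, whose proteins inhibit the activator pair, Per3 was the one that passed, and it fell. Per1 (chromosome 11, 69095217 to 69109960, plus strand) had 13.5 and 12.5 FPKM in 5-FU and 10.5 and 11.6 FPKM in PBS, a difference of 0.22 ± 0.125 log2 that did not pass (limma adjusted p = 0.204). It was the one of the 3 genes with the highest level in every library. The difference of Per1 was 0.28 log2 without PBS replicate 2 and 0.15 log2 without PBS replicate 1.

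Per2 (chromosome 1, 91415982 to 91459324, minus strand) had 4.30 and 4.38 FPKM in 5-FU, against 3.81 and 1.19 FPKM in PBS. PBS replicate 1 lay near the 5-FU libraries and PBS replicate 2 well below them. The difference of 0.72 ± 0.394 log2 did not pass (limma adjusted p = 0.184). It was 0.15 log2 without PBS replicate 2 and 1.29 log2 without PBS replicate 1. With a PBS library left out the error rests on the 5-FU pair, so only the size is given.

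Per3, which is dispensable for core rhythms in mice (chromosome 4, 151003652 to 151044665, minus strand), had 0.325 and 0.318 FPKM in 5-FU, against 1.87 and 2.12 FPKM in PBS. These values correspond to about 65 and 63 reads in 5-FU and 741 and 847 reads in PBS. Per3 was 6.20-fold lower in FPKM (-1.18 ± 0.126 log2 on the log2(FPKM + 1) scale, which understates low genes; limma adjusted p = 0.00401). Its call was lost without 5-FU replicate 1 or 2. With every library kept, its adjusted p ranged from 0.00256 to 0.0195 over the alternatives (limma).

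Summed over the 3 genes, Period FPKM was 18.1 and 17.2 in 5-FU and 16.2 and 14.9 in PBS. Per3 made up 1.79% and 1.84% of that sum in 5-FU and 11.5% and 14.2% in PBS. The ratio of Per1 to Per3 was 41.6 and 39.4 in 5-FU against 5.64 and 5.49 in PBS, while the ratio of Per1 to Per2 was 3.14 and 2.86 in 5-FU and 2.76 and 9.77 in PBS, with overlapping groups.

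The cryptochrome genes, which encode the PER partners that repress the activator pair most directly, both passed, Cry1 as lower and Cry2 as higher, and their levels lay closer together in 5-FU than in PBS. Cry1 (chromosome 10, 85131700 to 85185064, minus strand) had 13.6 and 13.9 FPKM in 5-FU, against 27.2 and 22.3 FPKM in PBS. It was the most abundant of the 10 genes per length in both PBS libraries and the third in both 5-FU libraries. The fall was 1.80-fold (-0.80 ± 0.14 log2, limma adjusted p = 0.0108), and the call was lost without 5-FU replicate 1 or 2. With every library kept, the adjusted p ranged from 0.00869 to 0.0352 over the alternatives (limma).

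Cry2 (chromosome 2, 92403646 to 92434043, minus strand) had 8.19 and 7.83 FPKM in 5-FU and 5.12 and 2.60 FPKM in PBS. Both 5-FU libraries were higher, and the PBS libraries differed 1.97-fold from each other. The rise was 2.08-fold (0.94 ± 0.281 log2, limma adjusted p = 0.0448). It was 0.56 log2 without PBS replicate 2 and 1.32 log2 without PBS replicate 1, and the call was lost in 4 of 15 alternatives, with a pseudocount of 0.1, with no filter on low values and without 5-FU replicate 1 or 2. Cry1 exceeded Cry2 by a ratio of 1.66 and 1.78 in 5-FU libraries, against 5.31 and 8.58 in PBS libraries.

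Of the REV-ERB receptor genes, Nr1d1 rose and Nr1d2 did not pass; the difference between the 2 was not tested. Nr1d1 (chromosome 11, 98767932 to 98775333, minus strand), which encodes the heme-binding repressor of Arntl, had 25.4 and 23.5 FPKM in 5-FU, against 3.95 and 10.6 FPKM in PBS. It was the most abundant of the 10 genes in both 5-FU libraries and had rank 7 and rank 5 in PBS replicates 1 and 2. The rise was 3.35-fold (1.74 ± 0.421 log2, limma adjusted p = 0.0253). It was 1.13 log2 without PBS replicate 1 and 2.36 log2 without PBS replicate 2, so its size depended on which PBS library was used. The call was lost in 3 of 15 alternatives, with no filter on low values and without 5-FU replicate 1 or 2.

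Nr1d2 (chromosome 14, 18204054 to 18239127, minus strand) had 4.83 and 5.51 FPKM in 5-FU and 5.51 and 9.79 FPKM in PBS. The higher 5-FU library and the lower PBS library were equal to 3 digits. The difference of -0.44 ± 0.275 log2 did not pass (limma adjusted p = 0.228). It was -0.08 log2 without PBS replicate 2 and -0.81 log2 without PBS replicate 1. The ratio of Nr1d1 to Nr1d2 was 5.26 and 4.26 in 5-FU, against 0.718 and 1.08 in PBS. The ratio of Nr1d1 to Arntl, repressor to target, was 7.64 and 5.93 in 5-FU and 0.267 and 0.646 in PBS.

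**Figure D2:**
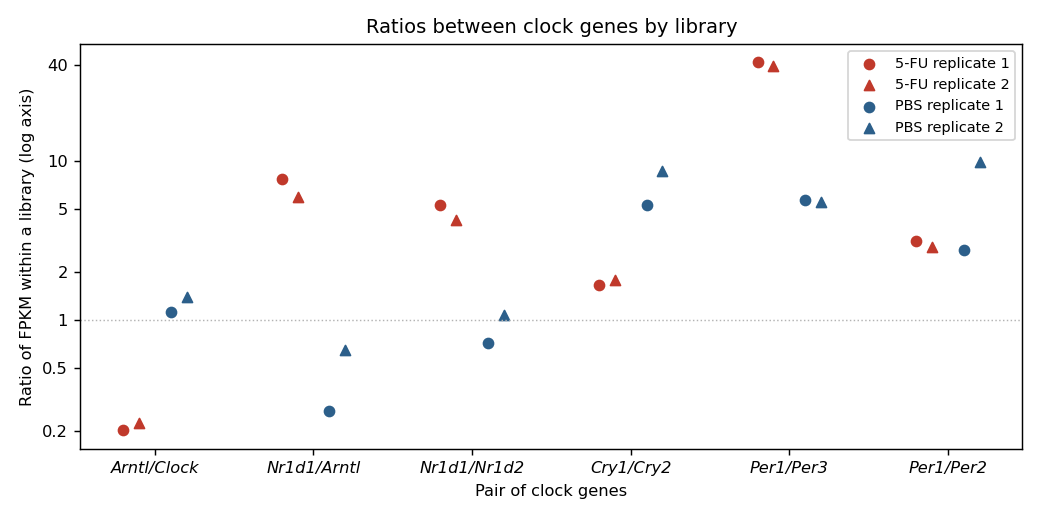
Ratio of FPKM between pairs of clock genes within each library (log axis), with 5-FU in red on the left and PBS in blue on the right of each pair; circles are replicate 1 and triangles replicate 2. The Arntl to Clock ratio is 0.202 and 0.224 in 5-FU and above 1 in PBS, Nr1d1 to Arntl is above 5 in 5-FU and below 1 in PBS, and the groups overlap only for Per1 to Per2.

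These ratios set 2 libraries against 2, where an exact two-sided permutation test cannot give a p below 0.333, so they are given as values without a test.

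Dbp, an output transcription factor of the PAR bZip family and among the most strongly rhythmic clock targets in mouse tissues (chromosome 7, 45705088 to 45710203, plus strand), had 0.636 and 0.725 FPKM in 5-FU, against 2.34 and 5.87 FPKM in PBS. These correspond to about 39.6 and 44.7 reads in 5-FU and 289.6 and 731 reads in PBS. Dbp was 6.03-fold lower in FPKM (-1.51 ± 0.364 log2, limma adjusted p = 0.0252). The difference was -2.03 log2 without PBS replicate 1 and -0.99 log2 without PBS replicate 2, and the call was lost in 3 of 14 alternatives, with no filter on low values and without 5-FU replicate 1 or 2.

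**Figure D3:**
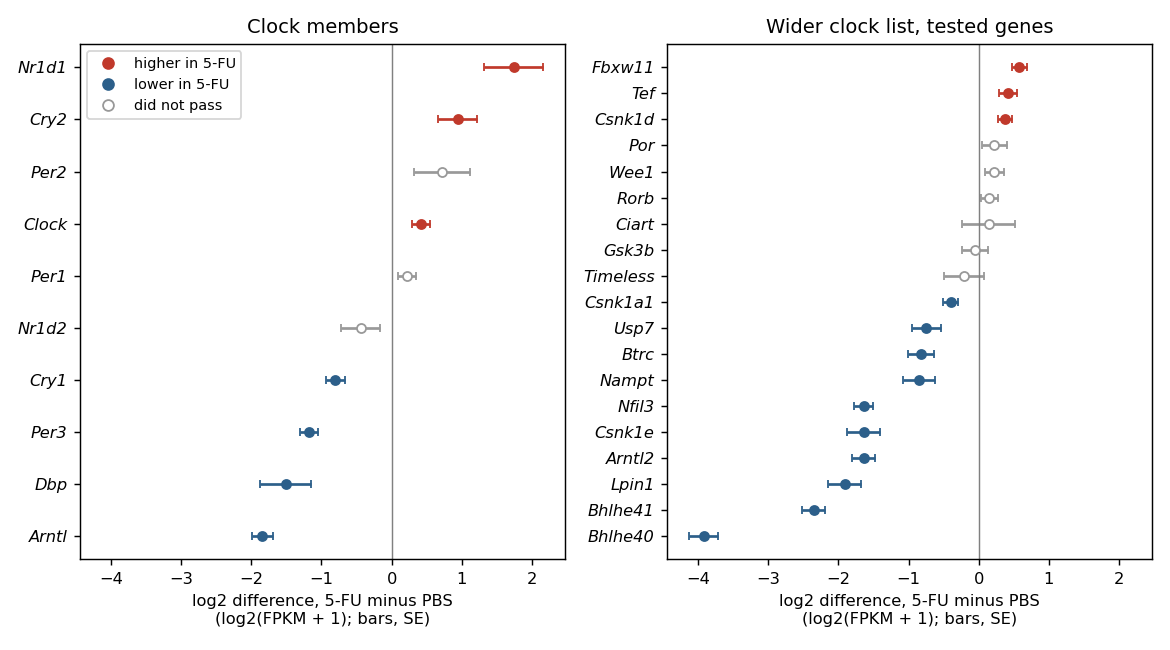
Log2 difference, 5-FU minus PBS, on the log2(FPKM + 1) scale with its SE for the 10 clock genes (left) and the 19 tested genes of the wider clock list (right). Filled red and blue points passed as higher and lower in 5-FU, open grey points did not pass; Nr1d1 at 1.74 and Arntl at -1.84 mark the ends of the 10, and Bhlhe40 at -3.92 the lowest of the wider list. The points of Gsk3b and Timeless change sign under quantile normalization.

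The PBS libraries stood apart in part of these genes. The PBS replicates differed by over 0.5 log2 in 5 of the 10 (Per2, Cry2, Nr1d1, Nr1d2 and Dbp), against 23.2% of all tested genes, and the 5-FU replicates in 0 of the 10, against 1.65% of tested genes. Nr1d1, Dbp and Nr1d2 were higher in PBS replicate 2, by 1.23, 1.04 and 0.73 log2. Per2 and Cry2 were lower in PBS replicate 2, with gaps of -1.14 and -0.77 log2. Gaps at least as large as that of Nr1d1 occurred in 1.55% of tested genes, and as large as that of Per2 in 2.18%. The activators and Per1, Per3 and Cry1 differed by at most 0.27 log2 between the PBS libraries.

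**Figure D4:**
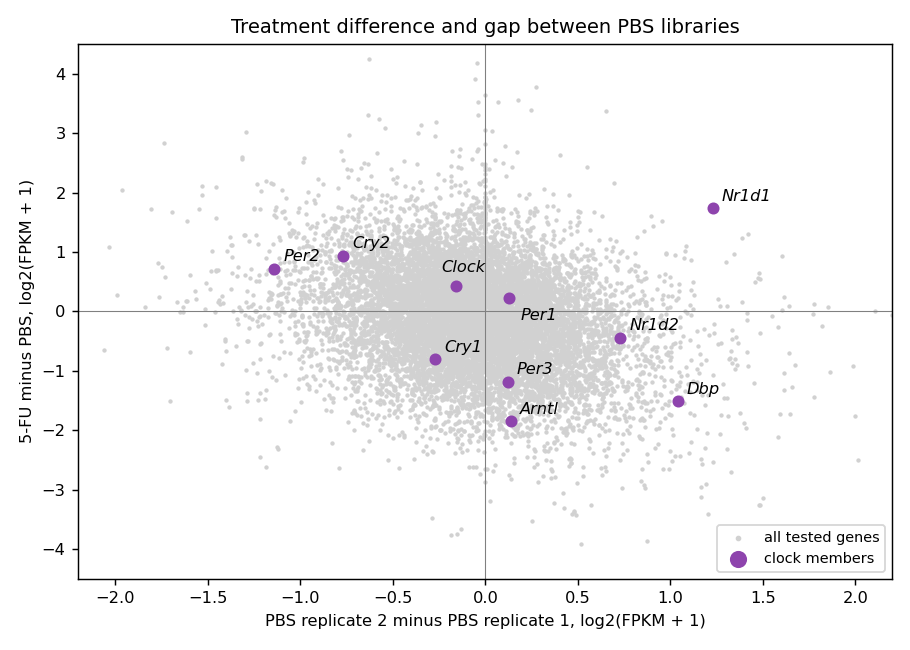
Gap between the PBS libraries (replicate 2 minus replicate 1, x axis) and difference 5-FU minus PBS (y axis), both in log2(FPKM + 1), for the 10 clock genes (purple) and all tested genes (grey; 8 lie outside the axes). Arntl and Per3 sit near 0 on the x axis at -1.84 and -1.18 on the y axis, whereas Nr1d1 (1.23) and Per2 (-1.14) have some of the wide PBS gaps.

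A wider list of 24 clock genes from textbook knowledge was described beside the 10. Of these, 19 could be tested, 10 fell, 3 rose and 6 did not pass, and their median log2 difference was -0.404 (-0.097 for all tested genes). Over all tested genes 31.2% fell and 22.1% rose. With the trend of each library with gene span removed, 6 fell and 6 rose. Of all 11644 tested genes 2859 fell and 2924 rose in that fit. Most calls of the list were lost with either 5-FU library left out, as over all tested genes. With each library left out in turn, the median log2 difference of the list lay between -0.547 and -0.364. That of all tested genes lay between -0.138 and -0.0626. With the span trend removed, the median was -0.223 for the list and 0.0158 for all tested genes. With no filter on low values it was -0.307 for the list and 0.00514 for all tested genes. With quantile normalization it was -0.421 for the list and 0.0199 for all tested genes. Npas2, the paralogue of Clock, and Fbxl21 were listed at 0 in all libraries, and Rora, Hlf and Usp2 were too low to test.

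Among the repressors, 3 of 5 fell, against 31.2% of all tested genes. Bhlhe40, which encodes DEC1, a bHLH repressor that competes for E-boxes, had 6.59 and 5.77 FPKM in 5-FU, against 89.5 and 128 FPKM in PBS. Its paralogue Bhlhe41 had 2.78 and 2.73 FPKM in 5-FU, against 16.0 and 20.5 FPKM in PBS. Nfil3, the D-box repressor, had 8.65 and 8.88 FPKM in 5-FU, against 27.2 and 32 FPKM in PBS. The log2 differences were -3.92 ± 0.205, -2.35 ± 0.164 and -1.64 ± 0.132 (limma adjusted p = 0.0027, 0.0027 and 0.00285).

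Bhlhe40 and Bhlhe41 passed, lower, in all 15 alternatives. Nfil3 lost its call in 1 of them, without 5-FU replicate 1. With every library kept, the adjusted p of Nfil3 ranged from 0.000916 to 0.0168 over the alternatives (limma). Ciart, which encodes the CLOCK-ARNTL inhibitor CHRONO, had 16.8 and 16.9 FPKM in 5-FU, between the 22.7 and 10.0 FPKM of the PBS libraries, and Timeless had 9.23 and 8.59 FPKM in 5-FU and 14.0 and 7.73 FPKM in PBS. Neither passed (limma adjusted p = 0.768 and 0.561).

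Among paralogues of the activators, Arntl2 (BMAL2) had 1.62 and 1.94 FPKM in 5-FU, against 8.42 and 6.93 FPKM in PBS. It was 4.32-fold lower (-1.64 ± 0.16 log2, limma adjusted p = 0.00364), so both Bmal paralogues fell. Rorb, a ROR receptor gene, measured 1.37 and 1.46 FPKM in 5-FU and 1.19 and 1.15 FPKM in PBS. It did not pass (limma adjusted p = 0.336).

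Tef, the PAR bZip paralogue of Dbp, had 6.94 and 6.55 FPKM in 5-FU and 4.61 and 5.00 FPKM in PBS (0.42 ± 0.13 log2, limma adjusted p = 0.0499, a call lost in 5 of 15 alternatives). Hlf, the third gene of that family, had 0.230 and 0.269 FPKM in 5-FU, against 0.764 and 0.784 FPKM in PBS, and was not tested. The ratio of Tef to Dbp was 10.9 and 9.05 in 5-FU and 1.97 and 0.852 in PBS.

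Of 7 tested genes for kinases and ubiquitin pathway proteins that act on PER and CRY, 4 fell (Csnk1e, Btrc, Csnk1a1 and Usp7) and 2 rose (Fbxw11 and Csnk1d), against 31.2% and 22.1% of all tested genes. With the span trend removed, 1 fell (Csnk1e) and 3 rose (Fbxw11, Csnk1d and Gsk3b), while 2859 fell and 2924 rose of all 11644 tested genes. Csnk1a1 had 22.6 and 23.9 FPKM in 5-FU and 30.4 and 31.7 FPKM in PBS (limma adjusted p = 0.0329, a call lost in 5 of 15 alternatives). Usp7 had 15.5 and 16.1 FPKM in 5-FU, against 32.9 and 22.4 FPKM in PBS (limma adjusted p = 0.0362, a call lost in 4 of 15 alternatives). The casein kinase 1 genes did not share a direction. Csnk1e had 3.01 and 2.80 FPKM in 5-FU, against 8.82 and 14.1 FPKM in PBS (-1.64 ± 0.239 log2, limma adjusted p = 0.00686). Csnk1d had 48.5 and 48.3 FPKM in 5-FU and 36.6 and 37.1 FPKM in PBS (0.38 ± 0.0995 log2, limma adjusted p = 0.0305, a call lost in 4 of 15 alternatives).

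The beta-TrCP genes, whose ubiquitin ligase targets PER, were split likewise. Fbxw11 was at 50.9 and 52.6 FPKM in 5-FU and 32.4 and 36.0 FPKM in PBS and passed as higher (0.58 log2, limma adjusted p = 0.0135), while Btrc was at 3.74 and 3.61 FPKM in 5-FU and 6.19 and 8.58 FPKM in PBS and passed as lower (-0.83 log2, limma adjusted p = 0.0207). The Btrc call was lost in 5 of 15 alternatives: no filter on low values, quantile normalization, the span trend removed, and each 5-FU library left out.

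Among 4 output genes, Lpin1, a phosphatidate phosphatase gene, had 5.16 and 4.62 FPKM in 5-FU, against 16.8 and 26.3 FPKM in PBS (-1.91 ± 0.236 log2, limma adjusted p = 0.00511). Nampt, whose enzyme makes the NAD+ precursor NMN, had 48.5 and 48.3 FPKM in 5-FU, against 71.2 and 109.5 FPKM in PBS (-0.85 ± 0.224 log2, limma adjusted p = 0.0317). The call of Nampt was lost in 4 of 15 alternatives: no filter on low values, the span trend removed, and each 5-FU library left out. Wee1 and Por did not pass (limma adjusted p = 0.231 and 0.334).

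Some clock genes overlap others on the opposite strand, and no strand setting is given in the sources used here, so reads in the shared bases cannot be assigned. Nr1d1 shares 263 exonic bases with Thra, the thyroid hormone receptor gene, which had 3.92 and 3.67 FPKM in 5-FU and 4.14 and 8.31 FPKM in PBS. The ratio of Nr1d1 to Thra was 6.48 and 6.40 in 5-FU and 0.955 and 1.28 in PBS, and Thra did not pass (limma adjusted p = 0.207). Dbp shares 539 exonic bases with Sphk2, a sphingosine kinase gene, which had 7.44 and 7.32 FPKM in 5-FU and 5.84 and 5.22 FPKM in PBS and did not pass (limma adjusted p = 0.0733). Cry2 shares 295 exonic bases with the noncoding gene D930015M05Rik, which stayed below 1 FPKM in every library. Per3 lies within the span of Camta1 on the same strand without shared exonic bases, and Camta1 had 0.679 and 0.742 FPKM in 5-FU, against 1.34 and 1.70 FPKM in PBS (-0.55 ± 0.138 log2, limma adjusted p = 0.0277), the same direction as Per3 and, like it, testable only through PBS. Mterf2 lies downstream of Cry1 on the same strand, at a gap of 3673 bp. It had 9.73 and 9.76 FPKM in 5-FU, against 1.89 and 0.722 FPKM in PBS. It was 2.27 log2 higher (limma adjusted p = 0.00498), opposite in direction to Cry1. Car11, 406 bp from Dbp on the same strand, had 0.698 and 0.478 FPKM in 5-FU and 1.05 and 1.75 FPKM in PBS. Like Dbp it was lower, but it did not pass (limma adjusted p = 0.0582). Tmem165, 623 bp from Clock on the opposite strand, had 27.3 and 28.5 FPKM in 5-FU and 37.5 and 36.9 FPKM in PBS. Other adjoining genes without overlap are not reported.

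The genes whose pattern lay nearest to that of Arntl were Ddx59, an RNA helicase gene, Idh1, the cytosolic isocitrate dehydrogenase gene, and R3hdm2. Their Euclidean distances to Arntl, over the 4 libraries on log2(FPKM + 1) centred on each gene's mean, were 0.074, 0.0791 and 0.0806, and their log2 differences were -1.90, -1.85 and -1.90. With 4 libraries in 2 groups, this likeness describes mainly the size of the difference.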

How the data were processed

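The authors deposited 1 table of FPKM values for 36445 genes in 4 polyA-selected MC38 libraries; STAR 2.4.1a, Picard 2.9.0 and GRCm38 are named in the submitters' processing notes without roles. The sources used here do not name the counting method, annotation or strand setting. Gene positions and exonic lengths came from GENCODE M21 (GRCm38), which held 36379 of the gene IDs. Depth was estimated from the smallest FPKM steps times exonic length; 63.1% to 65.1% of values below 100 reads then lay within 0.02 of a whole read, so read numbers are approximate and cover counting error only.

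Genes reaching 1 FPKM in 2 or more of the 4 libraries were tested on log2(FPKM + 1) with limma 3.58.1, 5-FU against PBS. The fit used R 4.3.3 and eBayes with trend, two-sided, with Benjamini-Hochberg adjustment over all tested genes. The procedure was also run on simulated data, but no outcome is given here and no conclusion is drawn from it. The genes and lists were chosen with earlier results of these data known. Named genes are the 10 members, tested genes of the wider list, some overlapping or adjoining genes, and the 3 nearest patterns to Arntl. Arntl was the member with the largest difference in the fit of this paragraph, but not in all alternatives. From the wider list, the 3 largest changes per direction, repressors and PAR bZip genes were always named, and others for their role. Some genes of the wider list are not reported here.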

Additional observations from a re-analysis of the deposited data

How the results depend on the processing

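The 15 alternatives were other pseudocounts, filters, scalings, variance priors, a replicate block, removal of the span trend, and each library left out. No member of the 10 changed sign in any of them. Over all tested genes the median log2 difference of -0.097 became 0.02 with quantile normalization. With no filter on low values 0 members were higher (3 at an unadjusted p under 0.05, limma) and 3 lower. Of all 23640 genes tested in that fit, 2368 were higher and 2836 lower. At a mean of at least 5 FPKM, where 7 members remained, 3 members were higher and 2 lower. Of the 7651 genes tested in that fit, 1777 were higher and 2158 lower. Per2, Per3 and Dbp fell below that mean. With the span trend removed the wider list held 6 genes higher and 6 lower, and 3 members were higher and 4 lower. Of all 11644 tested genes 2924 were then higher and 2859 lower. Among the members Clock was then 0.896 log2, Cry1 -0.478 log2 and Arntl -1.34 log2. The replicate number was shared between groups without a stated pairing, and same-numbered libraries did not deviate together (r = -0.0101 across genes). With the replicate block, 2 members were higher and 4 lower, and 1 gene of the wider list was higher and 9 lower. Over all 11644 tested genes 2484 were then higher and 3553 lower. Clock, Csnk1a1, Csnk1d and Tef missed the threshold in that fit (limma adjusted p for Clock 0.0909). Leaving out 1 library in turn gave 259 to 4385 genes higher and 237 to 5249 lower over all genes, 0 to 4 members higher and 0 to 5 lower, and 0 to 6 genes of the wider list higher and 2 to 12 lower; the lone library of a reduced group is taken to be as variable as the full group. For the wider list 0 genes were higher at an unadjusted p under 0.05 (limma) without 5-FU replicate 1 and without 5-FU replicate 2. Genes that did not pass and changed sign were Gsk3b (0.105 log2 with quantile normalization, 0.541 with the span trend removed, -0.273 to 0.176 with 1 library left out), Timeless (0.0172 with quantile normalization, -0.601 to 0.182 with 1 library left out) and Ciart (-0.408 to 0.694 with 1 library left out). The causes were not tested. Depth limits Per3 and Dbp in 5-FU most, at under 100 estimated reads each.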
